A study of Mus musculus with 8 samples.

Results

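The mouse mitochondrial chromosome carries 37 annotated genes, and all of them were taken here as the genes whose symbol begins with mt-, 37 of the 55471 gene rows in the count files. They comprise 13 mRNA genes, 2 rRNA genes and 22 tRNA genes. RNA was sequenced from pieces of heart of wild-type (WT) and TAZG197V mice, in 4 libraries per genotype, and reads on exons were counted per gene. TAZG197V mice carry a missense mutation known from a patient with Barth syndrome in Tafazzin, the mitochondrial enzyme that remodels the lipid cardiolipin. The mutation was made by CRISPR/Cas9 in C57BL/6N zygotes, founders were crossed to C57BL6/J, and the study used hemizygous males, with hearts compared at 14 weeks of age. The mutation is in every cell, so heart cells of all types carry it. The labels do not say that each library came from a separate mouse, while the study describes its replicates as biological. The p-values below measure the spread between these libraries.

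Mitochondrial DNA is transcribed from both strands as long RNAs that hold several genes in a row. Most of the tRNAs lie between the mRNAs and rRNAs, and their removal by RNase P at the 5′ end and RNase Z at the 3′ end frees the transcripts on either side. The mRNAs encode core subunits of complexes I, III, IV and V of the respiratory chain, whose work supplies most of the ATP of the beating heart, and the rRNAs and tRNAs serve the translation of these mRNAs inside the organelle.

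The called tRNAs with the largest differences between genotypes are encoded side by side. mt-Ti (isoleucine) lies at chrM:3706-3774 on the plus strand in mm10, mt-Tq (glutamine) at chrM:3772-3842 on the minus strand and mt-Tm (methionine) at chrM:3845-3913 on the plus strand. mt-Te (glutamate), the only member called higher in TAZG197V, lies at chrM:14071-14139 on the minus strand. Their gene sequences from GENCODE M21 are shown 5′ to 3′, with the anticodon in capitals, because these 4 transcripts were called in all 19 alternative fits.
mt-Ti: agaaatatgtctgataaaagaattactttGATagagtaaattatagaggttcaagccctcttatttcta
mt-Tq: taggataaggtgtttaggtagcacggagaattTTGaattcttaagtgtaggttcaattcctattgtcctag
mt-Tm: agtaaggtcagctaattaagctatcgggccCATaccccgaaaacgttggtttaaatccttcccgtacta
mt-Te: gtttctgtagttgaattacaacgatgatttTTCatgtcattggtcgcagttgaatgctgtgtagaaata
mt-Ti overlaps the end of mt-Nd1 by 2 bases and mt-Tq by 3 bases, mt-Tq ends 2 bases before mt-Tm, and mt-Tm abuts mt-Nd2 with no base between them. The counts do not separate a free tRNA from an uncut RNA that spans the tRNA gene, and a read that touched 2 genes may have been left uncounted.

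Total counts per library ranged from 23055689 to 36301031. Mitochondrial genes took 21.6% to 24.6% of the counts of WT libraries and 22.0% to 23.5% of those of TAZG197V libraries. Within the mitochondrial counts, mRNA genes took 95.8% ± 0.481 in WT and 96.2% ± 0.706 in TAZG197V, rRNA genes 3.90% ± 0.473 and 3.48% ± 0.670, and tRNA genes 0.317% ± 0.0284 and 0.288% ± 0.0372 (SD, n = 4 each). Taz itself stood at 60.9 ± 2.36 CPM (counts relative to library size, scaled by TMM factors) in WT and 47.3 ± 2.60 in TAZG197V hearts (SD, n = 4), without overlap, and was called lower. WT 4 stood apart, with 5.00% of its counts on haemoglobin genes against 0.0960% or less in every other library, and both number 4 libraries held more of 6 brain markers (195 CPM in WT 4 and 357 CPM in TAZG197V 4) than the others (41.2 to 81.1 CPM). The summed level of 6 cardiomyocyte markers was 48650 to 53520 CPM in WT and 39360 to 43940 CPM in TAZG197V, without overlap, and 4 of the 6 were called lower. Of 5 fibroblast markers 4 were called lower, with sums of 835 to 1346 CPM in WT and 571 to 774 CPM in TAZG197V, and of 5 endothelial markers 2, with 698 to 972 and 575 to 710 CPM. All 6 red cell markers were called lower, with sums of 346 to 55072 CPM in WT (682, 346 and 1065 CPM without WT 4) and 227 to 571 CPM in TAZG197V, while of 5 macrophage markers 0 were called, of 5 adipocyte markers 1 lower (summed at 21.0 CPM in WT 2 and at 0.161 to 3.56 CPM in every other library), of 5 skeletal muscle markers 0, and of the brain markers 1 higher and 1 lower. Over all tested genes, 15.1% were called lower and 18.5% higher, and 13.9% were lower in TAZG197V without overlap. The part of these marker differences in the results below was not tested. In pieces of heart, fewer cells of a type and less RNA per cell cannot be told apart.

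Of the 37 genes, 24 had more than 1 count in some library, 13 never exceeded 1 count, and 10 of these were at 0 in all libraries. The 6 mRNA genes with at most 1 count were mt-Co2 and mt-Co3, subunits of complex IV, mt-Atp6 and mt-Atp8, subunits of the ATP synthase, and mt-Nd3 and mt-Nd4l, subunits of complex I. The other 7 mRNA genes had 7413 CPM or more in every library. Each gene was cut into all of its 50-base windows, the length of a read, and the windows were looked up in the other annotated transcripts. All of the windows of mt-Co2 occurred in another gene, and so did 99.9% of those of mt-Co3, 99.5% of those of mt-Atp6, 98.8% of those of mt-Nd4l and 98.0% of those of mt-Nd3. For mt-Nd4 and mt-Co1, which were counted, the share was 62.2% and 51.1%, for mt-Nd2 8.19% and for mt-Nd5 7.61%, while no window of mt-Nd1, mt-Nd6, mt-Cytb or mt-Rnr1 occurred in another annotated gene. mt-Atp8 was also at 0 counts, and none of its windows occurred in another annotated gene. The window search covered annotated transcripts only, because no genome sequence was used here. It therefore cannot show that mt-Atp8 has no nuclear copy.

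**Figure D1:**
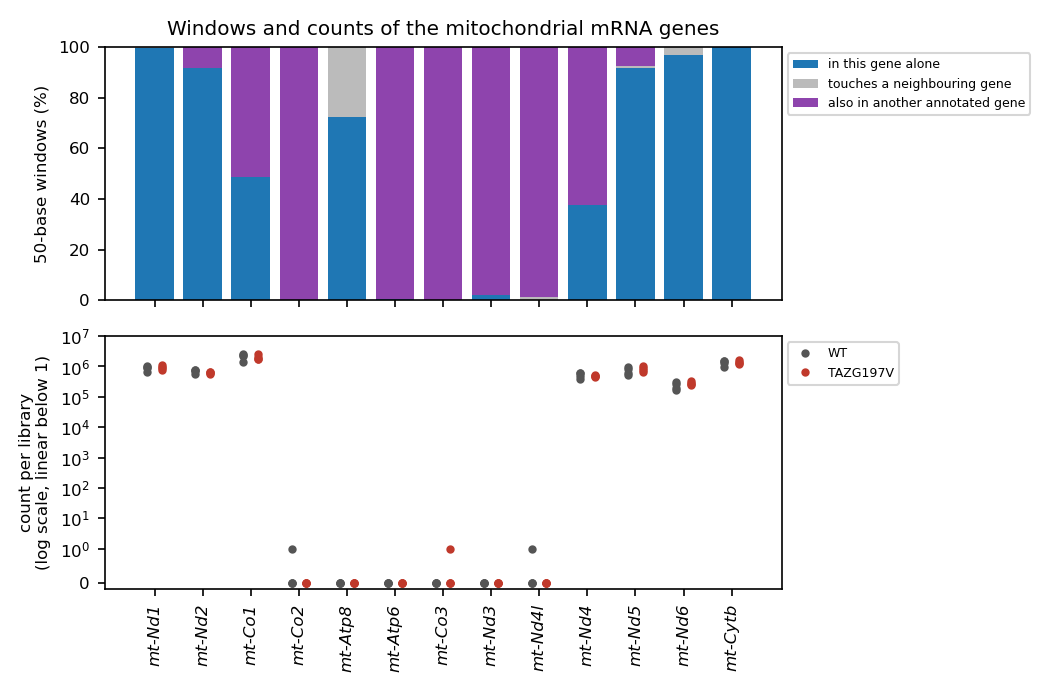
The upper panel gives, for each of the 13 mitochondrial mRNA genes, the percentage of its 50-base windows found in that gene alone, touching a neighbouring gene, or found also in another annotated gene. The lower panel gives the raw count in each of the 4 WT and 4 TAZG197V libraries on a log axis that is linear below 1; the 6 genes with at most 1 count include 5 with at least 98.0% of their windows elsewhere, and mt-Atp8.

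The shared windows lay in 15 annotated genes, most of them pseudogenes that are copies of mitochondrial DNA in the nuclear genome. The 5 with the most such windows lie on chromosome 1. Gm28439 held 827 windows of mt-Nd4 and had 1 to 11 counts per library, Gm28437 held 734 of mt-Co3 and had 10 to 27 counts, Gm28661 held 632 of mt-Co2 and had 4 to 16 counts, Gm10925 held 629 of mt-Atp6 and had 37 to 84 counts, and Gm29216 held 430 of mt-Co1 and had 17 to 37 counts. Gm28661 (chr1:24614885-24615565) and Gm10925 (chr1:24613974-24614651) follow each other, as mt-Co2 and mt-Atp6 do around mt-Tk and most of mt-Atp8. Whether the stretch between Gm28661 and Gm10925 holds sequence of mt-Tk or mt-Atp8 was not tested. Neither the 5 mitochondrial genes that share nearly all of their windows nor these copies received counts of the size of their counted neighbours. Gm28438 (chr1:24612775-24613119, minus strand), named after its values were seen, holds 293 of the 299 windows of mt-Nd3. It had 1222, 1276, 1751 and 891 counts in WT 1 to WT 4 and 584, 582, 736 and 873 in TAZG197V 1 to TAZG197V 4. It was called lower in TAZG197V at a log2 fold change of -1.06 ± 0.252 (SE; edgeR quasi-likelihood test, adjusted p = 0.0117), and whether its reads came from the copy or from mt-Nd3 cannot be told apart.

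Of the 22 tRNA genes, 15 were counted and 7 were at 0 in all libraries. The 7 were mt-Tw, mt-Ty, mt-Ts1, mt-Td, mt-Tk, mt-Tg and mt-Th, the tRNAs of tryptophan, tyrosine, 1 of the serine tRNAs, aspartate, lysine, glycine and histidine. None of their windows occurred in another annotated gene, but stretches between the annotated nuclear copies were not searched. A count of 0 allows up to 3 counts, which is 0.0810 to 0.134 CPM depending on the library, for counting error only. mt-Tf (phenylalanine) was counted at 0.341 ± 0.135 CPM in WT libraries and 0.256 ± 0.126 CPM in TAZG197V ones (SD, n = 4) and was removed by the filter on low counts.

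Levels of different genes were compared as CPM per 1000 windows found in that gene alone among annotated genes. This assumes that reads from shared windows were left uncounted and that no copies lie outside annotated genes. In WT the order of the mRNAs was mt-Co1 (100820 ± 11986), mt-Cytb (43209 ± 3798), mt-Nd4 (36731 ± 3117), mt-Nd1 (33974 ± 2718), mt-Nd2 (27823 ± 2562), mt-Nd6 (17735 ± 1238) and mt-Nd5 (15537 ± 1170, SD, n = 4 libraries each). The ranges of neighbours in this order overlapped between mt-Cytb and mt-Nd4, between mt-Nd4 and mt-Nd1, and between mt-Nd6 and mt-Nd5, and not elsewhere. The order depends on that assumption, since per 1000 bases of the whole gene it was mt-Co1 (47702), mt-Cytb (41358), mt-Nd1 (32163), mt-Nd2 (24285), mt-Nd6 (15582), mt-Nd5 (13850) and mt-Nd4 (13381). mt-Nd4 thus moved from behind mt-Cytb to the end, and mt-Co1 came closer to mt-Cytb. Both rRNAs lay lower on this scale, mt-Rnr2 at 4506 ± 585 and mt-Rnr1 at 2762 ± 704, with the whole range of mt-Rnr2 (3719 to 5122) above that of mt-Rnr1 (1936 to 3656). Among tRNAs mt-Tc (cysteine) was highest at 10198 ± 1668, then mt-Ta (alanine) at 8318 ± 1997, mt-Tl1 (a leucine tRNA) at 5979 ± 1650 and mt-Tp (proline) at 5407 ± 1889. The ranges of neighbours among these 4 tRNAs overlapped. The counted tRNAs thus spanned from mt-Tr (arginine), at 13.7 ± 6.85, to mt-Tc. The genes mt-Tc, mt-Ta, mt-Tp and mt-Nd6 lie on the minus strand. Without the strand setting their reads cannot be separated from reads of the RNA opposite them, so their places in these orders are uncertain. Library preparation can favour fragments of some sizes, so levels of the short tRNA genes and of the long genes are not on an equal footing. The RNA selection was not given either. The place of the rRNAs below the mRNAs therefore cannot be read as their level in the heart.

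To ask which mitochondrial transcripts differed between genotypes, 23 of the 37 had enough counts to be tested in a fit over 15084 genes. A gene was called when its adjusted p was under 0.05, its fold change exceeded 1.15 and its mean scaled count was at least 50. Of the 23, 7 were called, 1 higher and 6 lower in TAZG197V, against 33.5% of all genes called, 18.5% higher and 15.1% lower. The called members were 30.4% of those tested, 4.35% higher and 26.1% lower. The higher member was mt-Te, and the lower members were mt-Tm, mt-Tq, mt-Ti, mt-Tl1, mt-Rnr2 and mt-Nd2. Libraries of the genotypes did not overlap for 7 members, 2 higher and 5 lower, where 33.2% of all tested genes did not overlap, 19.3% higher and 13.9% lower. The median log2 fold change of the 23 was -0.08, against -0.01 over all tested genes, with 9 members above 0 and 14 below. That median moved with single libraries, and it stayed below 0 when any 1 library was left out. It was -0.05 without WT 1 or WT 3, -0.14 without TAZG197V 3, -0.17 without TAZG197V 4, -0.18 without WT 2, -0.21 without WT 4 and -0.20 without both number 4 libraries. Scaled by the mitochondrial total the median was 0.03. That scale makes the summed mitochondrial counts equal between libraries, so it cannot show a shift shared by these genes. By class, 5 of 14 tested tRNAs, 1 of 2 rRNAs and 1 of 7 mRNAs were called. Without WT 3, and likewise without TAZG197V 2, 4 members were called, 1 higher and 3 lower, and without both number 4 libraries 8 were called, 1 higher and 7 lower. Of all genes, 4735 of 15495 were called without WT 3, 3675 of 15251 without TAZG197V 2 and 5193 of 15232 without both number 4 libraries.

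**Figure D2:**
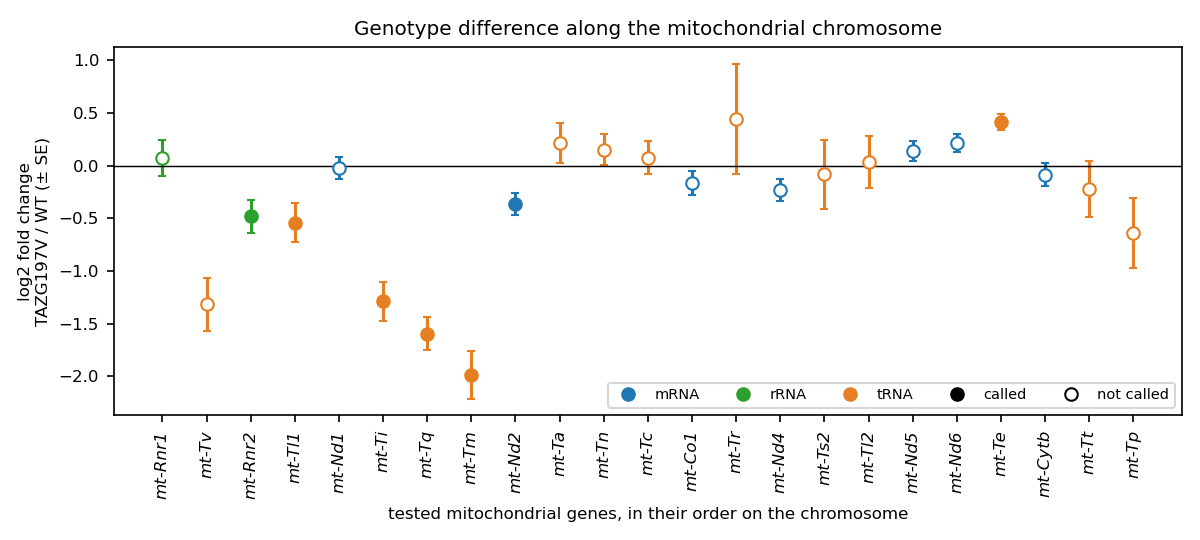
Log2 fold change of TAZG197V over WT with its SE for the 23 tested mitochondrial genes, in their order on the chromosome, coloured by class and filled where called. mt-Ti, mt-Tq and mt-Tm, which stand next to each other, had the lowest called values (-1.29, -1.60 and -1.99), while mt-Nd1 before them stood at -0.02 and mt-Nd2 after them at -0.37.

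Counts over the tRNA genes of isoleucine, glutamine and methionine were all lower in TAZG197V hearts, by 2.44 to 3.97 times. Every TAZG197V library lay below every WT library for each of them. Free tRNA and uncut RNA are not separated in these counts, so the amount of working tRNA was not measured. mt-Tm, the only methionine tRNA of the organelle, which serves both the start codon and internal methionines, stood at 45.2, 39.6, 67.7 and 65.0 CPM in WT 1 to WT 4 and at 18.0, 8.77, 11.3 and 19.9 CPM in TAZG197V 1 to TAZG197V 4. WT 3 and WT 4 were the highest, and all TAZG197V libraries lay below WT 2, the lowest of WT. mt-Tm fell by 1.99 on the log2 scale (SE 0.225; edgeR quasi-likelihood test, adjusted p = 0.000343), from 54.4 ± 14.1 to 14.5 ± 5.32 CPM (SD, n = 4 each). mt-Tq, the glutamine tRNA, read from the opposite strand, stood at 56.1, 45.6, 56.0 and 57.9 CPM in WT and at 16.9, 11.9, 18.7 and 26.9 CPM in TAZG197V. It fell by 1.60 on the log2 scale (SE 0.158; edgeR quasi-likelihood test, adjusted p = 0.000177), again without overlap. mt-Ti, the isoleucine tRNA, stood at 14.9, 13.1, 18.4 and 13.5 CPM in WT and at 5.85, 4.59, 6.07 and 8.87 CPM in TAZG197V. The fall of mt-Ti was 1.29 on the log2 scale, a change of -1.29 ± 0.187 (SE; edgeR quasi-likelihood test, adjusted p = 0.00114).

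For all 3 tRNAs the TAZG197V libraries had the same order at the ends, with TAZG197V 2 lowest and TAZG197V 4 highest. Over 19 alternatives the log2 fold change ranged from -2.18 to -1.80 for mt-Tm, from -1.73 to -1.46 for mt-Tq and from -1.48 to -1.11 for mt-Ti, and each was called in all 19. Within sequencing lanes the log2 ratios of mean CPM were -1.66 in lane 7 and -2.09 in lane 8 for mt-Tm, -1.82 and -1.32 for mt-Tq, and -1.43 and -1.10 for mt-Ti, each from 2 libraries a genotype. The kit's strand setting was not stated, so reads of mt-Tq cannot be separated from reads of the RNA opposite it, which runs from mt-Ti into mt-Tm.

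**Figure D3:**
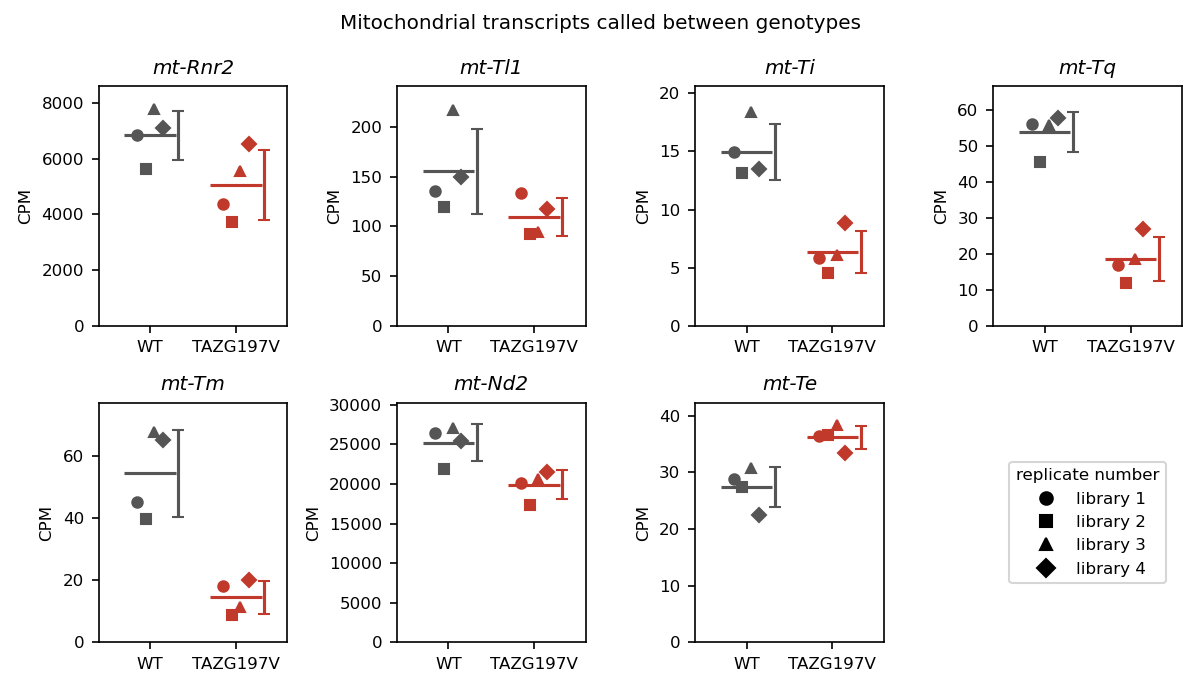
CPM in each library for the 7 called mitochondrial transcripts, with the mean as a line and the SD as a bar (n = 4 each), and marker shapes for replicate numbers. The genotypes do not overlap for mt-Ti, mt-Tq, mt-Tm, mt-Nd2 and mt-Te, and they overlap for mt-Rnr2 and mt-Tl1.

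mt-Te, the glutamate tRNA encoded on the minus strand beside mt-Nd6, was the only member called higher. It stood at 28.9, 27.5, 30.7 and 22.5 CPM in WT and at 36.4, 36.5, 38.4 and 33.4 CPM in TAZG197V, without overlap. mt-Te rose 1.33-fold, a log2 fold change of 0.42 ± 0.0746 (SE; edgeR quasi-likelihood test, adjusted p = 0.00318), and it was called in all 19 alternatives. As for mt-Tq, without the strand setting its reads cannot be separated from reads of the plus-strand RNA opposite it. mt-Tl1, the leucine tRNA with the anticodon TAA that follows mt-Rnr2, stood at 135, 119.6, 217 and 149.7 CPM in WT and at 134, 92.9, 94.4 and 117 CPM in TAZG197V. The genotypes overlapped, and WT 3 was highest. Its log2 fold change was -0.54 ± 0.183 (SE; edgeR quasi-likelihood test, adjusted p = 0.0467). The call of mt-Tl1 was kept in 7 of 19 alternatives, and it was lost without WT 3 (log2 fold change -0.32), without WT 4 (-0.53), without TAZG197V 2 (-0.50), without TAZG197V 3 (-0.51), without TAZG197V 4 (-0.55) and under 7 alternatives that left no library out.

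mt-Tv, the valine tRNA between both rRNA genes, passed the p threshold but not the minimum mean count of 50. It stood at 0.677, 0.632, 1.09 and 0.848 CPM in WT and at 0.363, 0.324, 0.323 and 0.330 CPM in TAZG197V, without overlap, at a log2 fold change of -1.32 ± 0.251 (SE; edgeR quasi-likelihood test, adjusted p = 0.00428). mt-Tp, the proline tRNA at the end of the gene order, was not called at -0.64 ± 0.333 (SE; edgeR quasi-likelihood test, adjusted p = 0.162). Its libraries stood at 146, 78.2, 94.3 and 70.6 CPM in WT and at 61.1, 36.7, 52.7 and 126 CPM in TAZG197V, so TAZG197V 4 alone was as high as WT. Without TAZG197V 4 mt-Tp was called at -1.05, without WT 4 at -0.88, without both at -1.07, and without the low-count filter at -0.87. It was not called at -0.35 without WT 1, its highest WT library, nor at -0.44 without TAZG197V 2, its lowest library. The other 7 tested tRNAs were not called. mt-Ta, mt-Tn (asparagine), mt-Tc, mt-Tr and mt-Tl2 (a leucine tRNA) had log2 fold changes of 0.04 to 0.44, and mt-Ts2 (a serine tRNA) and mt-Tt (threonine) -0.08 and -0.22. Over the 19 alternatives mt-Tl2 ranged from -0.23 to 0.21, mt-Tc from -0.06 to 0.19 and mt-Ts2 from -0.29 to 0.11, so their signs turned. Single libraries moved the values of these tRNAs widely. mt-Tr, at 0.44, ranged from 0.06 without WT 4 to 0.83 without WT 1, mt-Ta, at 0.22, from 0.04 without WT 4 to 0.34 without WT 3, mt-Tn, at 0.15, from 0.01 without TAZG197V 3 to 0.23 without TAZG197V 2, and mt-Tt from -0.50 without TAZG197V 1 to -0.06 without TAZG197V 4.

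The rRNAs differed from each other. mt-Rnr2, the RNA of the large mitochondrial ribosomal subunit, was called lower, and mt-Rnr1, the RNA of the small subunit that precedes it on the chromosome, was not. mt-Rnr2 stood at 6842, 5641, 7769.5 and 7093 CPM in WT and at 4389.8, 3735, 5576 and 6541 CPM in TAZG197V. TAZG197V 4 lay above WT 2, so the genotypes overlapped. Its log2 fold change was -0.48 ± 0.156 (SE; edgeR quasi-likelihood test, adjusted p = 0.0403), from 6836 ± 888 to 5060.3 ± 1247 CPM (SD, n = 4). The call was kept in 12 of 19 alternatives, and it was lost without WT 1 (-0.49), WT 3 (-0.37), WT 4 (-0.48), TAZG197V 1 (-0.44) and TAZG197V 2 (-0.39), and also with no surrogate variables (-0.43) and with library totals alone (-0.41). mt-Rnr1 stood at 2499, 1754, 3313 and 2442 CPM in WT and at 2530.1, 2170.1, 3013 and 3194 CPM in TAZG197V. The log2 fold change of mt-Rnr1 was 0.07 ± 0.17 (SE; edgeR quasi-likelihood test, adjusted p = 0.760), which turned to -0.02 without WT 2 and to -0.04 without TAZG197V 3. Since the RNA selection was not given, the counts of both rRNAs may be of what a selection step left.

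Among the mRNAs, mt-Nd2, a subunit of complex I, was the only one called. It stood at 26442, 21867, 27055 and 25466 CPM in WT and at 20061, 17309, 20582 and 21569 CPM in TAZG197V. Every TAZG197V library lay below every WT library. mt-Nd2 fell by 0.37 on the log2 scale (SE 0.106; edgeR quasi-likelihood test, adjusted p = 0.0265). mt-Nd1, the complex I subunit on the other side of the tRNAs, stood at 28513 to 33763 CPM in WT and at 28902 to 33254 CPM in TAZG197V, and its log2 fold change was -0.02 ± 0.104 (SE; edgeR quasi-likelihood test, adjusted p = 0.896). The call of mt-Nd2 was kept in 14 of 19 alternatives, and it was lost without WT 3 (-0.32), WT 4 (-0.35), TAZG197V 1 (-0.38), TAZG197V 2 (-0.32) and TAZG197V 4 (-0.37).

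mt-Nd6, another subunit of complex I and the only mRNA gene on the minus strand, stood at 8688, 8385, 7862 and 7413 CPM in WT and at 8999.8, 9251, 9263 and 9550.2 CPM in TAZG197V. The genotypes did not overlap, yet mt-Nd6 was not called at a log2 fold change of 0.21 ± 0.0825 (SE; edgeR quasi-likelihood test, adjusted p = 0.0719). It was called without WT 1 (0.26). Without the strand setting, reads anywhere over mt-Nd6 cannot be separated from reads of the plus-strand RNA opposite it, and its last 14 bases also overlap mt-Nd5. The same limit holds for the other minus-strand tRNAs tested, mt-Ta, mt-Tn, mt-Tc and mt-Tp. The other 4 tested mRNAs were not called in the main fit. Among the alternatives, mt-Nd4 was called with DESeq2 and without the low-count filter, and mt-Nd5 with the mitochondrial total. mt-Nd4 of complex I had a log2 fold change of -0.23 ± 0.103 and mt-Nd5 one of 0.14 ± 0.0947. mt-Co1, the catalytic subunit of complex IV, had -0.16 ± 0.114, and mt-Cytb of complex III had -0.08 ± 0.105 (SE). Without WT 3 these values moved to -0.10 for mt-Co1, -0.05 for mt-Cytb and 0.09 for mt-Nd5, and without WT 1 mt-Cytb moved to -0.05. Since mt-Co1 and mt-Nd4 share most of their windows with nuclear copies, their counts may come from only part of their sequence.

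Because all mitochondrial transcripts of a library share its scaling, 6 ratios of raw counts within a library were compared. The pairs were chosen with earlier results of these data known, and 4 of them set a transcript called lower over another mitochondrial transcript, so their p-values restate that the genotypes do not overlap and are no independent support. The count of mt-Rnr2 was 274, 322, 235 and 290.4% of that of mt-Rnr1 in WT 1 to WT 4 and 173.5, 172, 185 and 205% in TAZG197V 1 to TAZG197V 4. The genotypes did not overlap, with a log2 difference of -0.60 (exact permutation test, two-sided, p = 0.0286, 0.0429 adjusted over the 6 ratios). The p of 0.0286 is the smallest that 4 libraries against 4 allow. mt-Nd2 was 81.9% ± 4.68 of mt-Nd1 in WT and 65.0% ± 4.71 in TAZG197V libraries (SD, n = 4), with a log2 difference of -0.33 and the same exact permutation p. mt-Tm was 0.171, 0.181, 0.250 and 0.255% of mt-Nd2 in WT and 0.0896, 0.0507, 0.0549 and 0.0925% in TAZG197V. Relative to the mRNA that begins right after it, counts over the methionine tRNA gene thus differed by -1.60 on the log2 scale, without overlap (exact permutation p = 0.0286, adjusted 0.0429). mt-Ti was 0.0485% ± 0.00403 of mt-Nd1 in WT and 0.0206% ± 0.0046 in TAZG197V (SD, n = 4), a log2 difference of -1.26 with the same exact permutation p. These 4 ratios did not overlap between genotypes. mt-Cytb was 154% ± 6.05 of mt-Nd1 in WT and 147% ± 6.04 in TAZG197V, a log2 difference of -0.06 (exact permutation p = 0.171, adjusted 0.206). WT 1 was highest for this ratio, at 162% against 148% to 153% in the other WT libraries. mt-Nd6 was 32.03% ± 0.972 of mt-Nd5 in WT and 33.6% ± 3.35 in TAZG197V, a log2 difference of 0.07 (exact permutation p = 0.571), and that ratio turned to -0.0026 without TAZG197V 4.

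**Figure D4:**
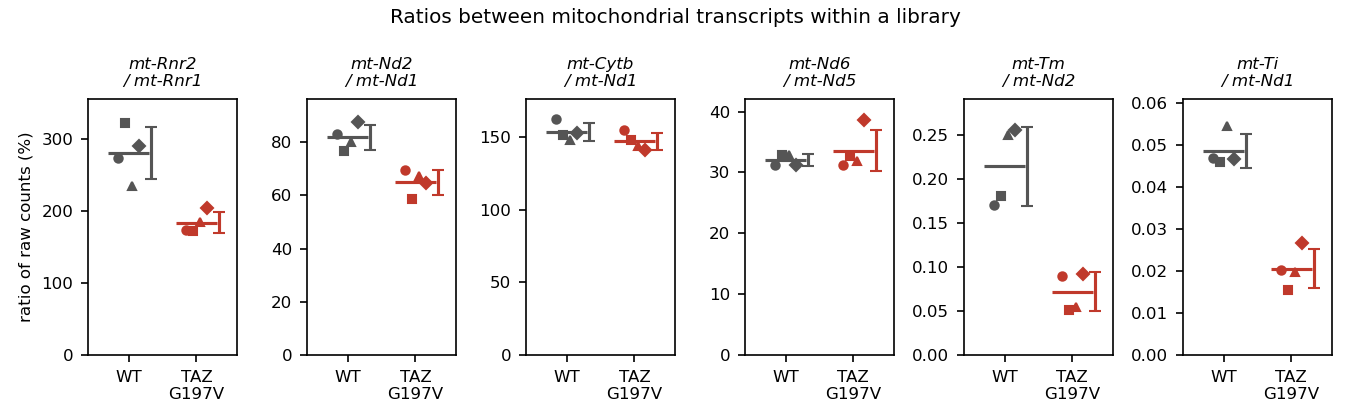
Ratio of raw counts in percent for the 6 pairs of mitochondrial transcripts in each library, with mean and SD (n = 4 each) and the marker shapes of replicates 1 to 4 drawn as circle, square, triangle and diamond. The mt-Rnr2, mt-Nd2, mt-Tm and mt-Ti ratios lie lower in all TAZG197V libraries than in any WT library, and the mt-Cytb and mt-Nd6 ratios overlap.

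Nuclear genes that make, cut, modify or degrade mitochondrial RNA were counted in 5 lists of 68 genes, of which 65 were tested. The other 3, Prorp, the nuclease of RNase P, Fastkd4 and Mtres1, were not found under these symbols and are not analysed here. Of these 65, 20 were called higher (30.8%) and 6 lower (9.23%), against 18.5% and 15.1% of all genes, and their median log2 fold change was 0.14. Of 19 genes for tRNA modification 11 were called higher and 2 lower, with a median of 0.39. Nsun3, which methylates the anticodon of mt-Tm, rose by 0.74 on the log2 scale (9.25 ± 0.43 to 15.4 ± 1.65 CPM, SD, n = 4), and Pus1, a pseudouridine synthase, rose by 0.73. Osgepl1, which makes a modified adenosine next to the anticodon, fell by 0.74 (52.2 ± 5.10 to 31.3 ± 3.01 CPM). Of 9 tested genes for cleavage and 3′ ends 5 were called higher and 0 lower. Elac2, the RNase Z that cuts behind tRNAs, rose by 0.53 (27.1 ± 2.75 to 39.9 ± 2.43 CPM), Pde12, which trims poly(A) tails, by 0.40, and Mtpap, which adds them, by 0.29. Of 15 genes for rRNA modification 3 were called higher and 3 lower, among them Mettl15 (0.42) and Ddx28 (0.42), which act in ribosome assembly, and Mrm2 (-0.38), which methylates mt-Rnr2. Of 11 genes for mRNA stability and RNA decay 1 was called, the oligoribonuclease Rexo2 at 0.67, and of 11 tested genes for transcription and the nucleoid 1, Mterf2 at -0.61, a relative of the termination factor. Several of these enzymes also act outside mitochondria.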

How the data were processed

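The deposited values were whole-number counts per Ensembl gene, which the authors made from 50-base single-end reads with bcl2fastq 2.20.0, STAR 2.7.3a (mm10) and featureCounts of Subread 2.0.0. TruSeq libraries were made from total RNA. How reads with several alignments were handled, the strand setting, the RNA selection and the annotation release were not given in the sources used here. The 92 spike-in rows summed to 0 and were left out. Symbols, positions and sequences came from GENCODE M21 (GRCm38).

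Genotypes were compared with edgeR 4.0.16 in R 4.3.3 (filterByExpr, TMM, quasi-likelihood F-test, two-sided, Benjamini-Hochberg over 15084 genes) with 2 surrogate variables from svaseq in sva 3.50.0 (random seed 1). The SE is the log2 fold change divided by the square root of F. Alternatives were DESeq2 1.42.0, other covariates, scalings, filters and cut-offs, and omission of libraries. The scripts were tested on simulated data. The named genes were all members, up to 5 nuclear copies with the most windows, up to 3 called genes per nuclear list and Taz, with Gm28438, Prorp, Fastkd4 and Mtres1 named outside this rule. Members, lists and ratios were chosen with earlier results of these data known. Within a genotype, library pairs differed by a chi-square of at least 10.2 per gene, more than sampling noise, so none was the same library deposited again. That does not show that libraries came from separate mice. Floors cover counting error only, while each SD and SE includes the spread between libraries.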

Additional observations from a re-analysis of the deposited data

Results flagged for a closer look

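In 4 of 60 sets of 4 libraries 1 library stood far from the other 3, by Dixon's gap test at the 95% level, where chance gives about 3. WT 2 was lowest for mt-Tq at 45.6 CPM against 56.0 to 57.9 CPM in the other WT libraries (0.844 of the range). WT 3 was highest for mt-Ti relative to mt-Nd1 at 0.0545% against 0.0460% to 0.0469% (0.893). TAZG197V 2 was lowest for mt-Tr at 0.135 CPM against 0.400 to 0.452 CPM (0.835), and TAZG197V 4 was lowest for mt-Nd5 at 24765 CPM against 28317 to 29008 CPM (0.837).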

How the results depend on the processing

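The calls of mt-Tm, mt-Tq, mt-Ti and mt-Te held in all 19 alternatives run for single transcripts. A minimum fold of 1.5 left 3 of the 23 tested members called, 0 higher and 3 lower, so mt-Te was not among them. That cut-off left 1843 of 15084 genes called (998 higher, 845 lower). Of the 65 tested nuclear genes for mitochondrial RNA it left 6 (4 higher, 2 lower). Leaving out 1 library gave 4 to 7 called members, 1 to 2 higher and 3 to 6 lower, with 4 called and 3 lower without WT 3 and without TAZG197V 2. In the same fits 3675 (without TAZG197V 2) to 4816 of all genes were called, against 5060 with all libraries, and 4735 without WT 3. Without the low-count filter 9 members were called, 1 higher and 8 lower, mt-Tp and mt-Nd4 among them, against 4965 of 31410 genes. The number called higher was 2 with DESeq2, with library totals alone and without WT 1, and 3 when scaled by the mitochondrial total. That scale shifted the median of all genes by 0.107 on the log2 scale. It turned mt-Nd1 to 0.0905, mt-Ts2 to 0.0465 and mt-Cytb to 0.0263, and library totals alone turned mt-Nd1 to 0.0505. mt-Nd6 was called with DESeq2, with library totals and with the mitochondrial total, mt-Nd4 with DESeq2 and without the low-count filter, and mt-Nd5 with the mitochondrial total.

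The replicate number as a block, in place of the surrogate variables, gave 6 called members, since mt-Tl1 was lost, against 4272 of 15084 genes. Deviations of same-numbered libraries correlated at 0.277, 0.0436, 0.28 and 0.416, and those of differently numbered libraries at -0.464 to 0.317. Since number 2 was under 0.1 and the labels name no shared litter or day, the numbers were not taken to pair the libraries. mt-Tl2 stood at -0.0199 under the block, at -0.0317 with no surrogate variables, at -0.0029 with 1, at -0.0519 with the lane and at -0.0763 without the low-count filter. Without both number 4 libraries mt-Tl2 stood at -0.227, mt-Tc at -0.0643 and mt-Nd6 relative to mt-Nd5 at -0.0155. With 1 library left out, signs turned for mt-Rnr1 (-0.0387 to 0.261), mt-Nd1 (-0.0700 to 0.0443), mt-Tc (-0.0559 to 0.189), mt-Ts2 (-0.294 to 0.114), mt-Tl2 (-0.213 to 0.211) and mt-Nd6 relative to mt-Nd5 (-0.0026 to 0.0978). The cause of these changes was not tested. The 14 members that did not pass the filter on low counts were not tested, and no difference is read from them.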
